A study of Mus musculus with 11 samples.

Results

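The Hedgehog signalling genes of the mouse ovary were followed across 3 ages in bulk RNA of whole ovaries. The members are the 8 rows of the deposited gene count table whose symbol is Dhh, Ihh, Ptch1, Smo, Gli1, Gli2, Gli3 or Hhip, out of 54232 genes listed. All 8 passed the filter on low counts, as did 20331 genes in all.

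The samples were ovaries of wild-type mice aged 2, 18 and 24 months, named as such in the sample titles. The youngest group had 4 libraries, the middle group 4 and the oldest 3. Genotype was the same in all groups, no treatment was named, and the strain, cycle stage and number of animals behind each library were not in the labels. The library names of the oldest group say 22 months and those of the youngest 8 weeks; the titles were followed here. Total counts lay between 5231724 and 33407509 per library. The 18 month replicates 3 and 4, the shallowest at 5231724 and 8892915 counts, differed by little more than counting noise, which gives a chi-square of about 1 per gene (1.10 over 17173 genes, against 28.7 for the next pair), and were counted as 1 sample, which left 4, 3 and 3 samples. Nothing in the labels says that the samples came from separate animals, so the p-values measure the spread between these samples only.

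Hedgehog proteins are secreted ligands. In the follicle, granulosa cells next to the oocyte make Indian and Desert hedgehog, and the neighbouring mesenchymal cells that form the theca receive them. The receptor Patched holds back the membrane protein Smoothened; a bound ligand lifts this block, and the signal passes through the primary cilium to the GLI transcription factors. Ptch1, Gli1 and Hhip are themselves raised by the signal in many tissues and are often read as its targets. Because whole ovary was measured, follicle, theca, stroma and other cells were mixed in each value, and fewer cells of a type cannot be told apart from less RNA per cell.

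Levels are given as CPM, the usual count scaled to library size, using TMM factors, and errors are SDs over samples. Differences are log2 fold changes, older over younger, with the SE of the edgeR quasi-likelihood fit over all genes; a gene is said to have risen or fallen where its Benjamini-Hochberg adjusted p was under 0.05. At 24 against 2 months, 3 of the 8 members (37.5%) passed the test, a share close to that of all genes tested (35.0%). The ligand gene Ihh was 6.43-fold lower, while Gli1 and Gli3 were 1.65-fold and 1.93-fold higher. Higher calls made up 19.2% of all genes tested and lower calls 15.8%. Of all calls 54.9% were thus higher, against 73% with library totals in place of TMM, and at 18 months 52.3% against 66.7%. The median log2 fold change was 0.03 over the members and 0.03 over all genes, with 4 members above and 4 below 0.

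At 18 against 2 months none of the 8 members passed the test, against 11.6% of all genes (6.04% higher and 5.51% lower). Ihh and Hhip had an unadjusted p under 0.05; DESeq2 called 1 member, Hhip, and limma-voom 0. At 24 against 18 months none of the 8 members passed either, as almost no gene did (0.00492% of those tested, which is 1 gene, and 0 with a replicate block), and 0 had an unadjusted p under 0.05; DESeq2 and limma-voom also called 0. The values of the 2 groups did not overlap for 2 members (25%) at 18 against 2 months, where 27.3% of all genes did not overlap. For 24 against 2 months it was 3 members (37.5%) against 42.1% of all genes, and for 24 against 18 months 0 members against 12.1%. The comparisons of both older ages use the same 2 month samples.

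**Figure D1:**
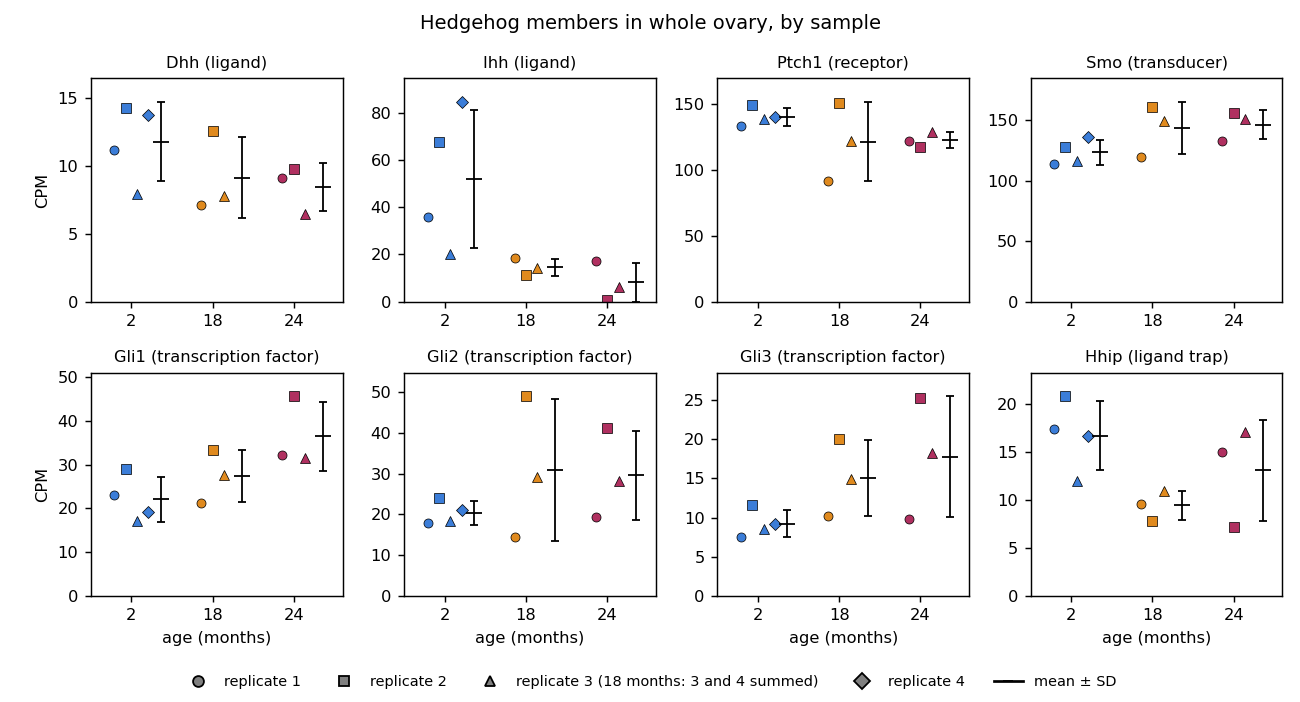
Level of each of the 8 members (CPM, vertical axis from 0) in every sample at 2, 18 and 24 months; symbols mark the replicate number and bars the mean ± SD over 4, 3 and 3 samples. Ihh lies at 20.1 CPM or more in the 2 month samples and at 18.3 CPM or less in the older ones, and Gli1 is highest at 24 months.

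Ihh encodes Indian hedgehog, one of the ligands of the follicle. Its gene (ENSMUSG00000006538) lies on the minus strand of chr1:74945315-74951672 in mm10. At 2 months the samples held 35.9, 67.6, 20.1 and 84.5 CPM. At 18 months they held 18.3, 11.3 and 14.05 CPM. At 24 months they held 17.2, 0.882 and 6.37 CPM, the lowest value, that of replicate 2, resting on 31 counts. All 6 older samples lay below all 4 young ones, while the young samples themselves differed widely.

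The mean of Ihh was 52.0 ± 29.3 CPM (SD, n = 4) in young ovaries, 14.5 ± 3.56 CPM (n = 3) in the middle group and 8.14 ± 8.29 CPM (n = 3) in the oldest. Ihh fell by 2.69 on the log2 scale at 24 against 2 months (SE 0.827; 95% interval -4.54 to -0.83; edgeR adjusted p = 0.0323). The log2 fold change at 18 against 2 months was -1.84 (SE 0.794; edgeR adjusted p = 0.155), which did not pass the test, although it did with only the 2 ages compared (-1.82; edgeR adjusted p = 0.0412, the lowest of its alternatives, which reached 0.343). Between 18 and 24 months it was -0.85 (SE 0.819; edgeR adjusted p = 0.715). The 24 month call was lost without 2 month replicate 1, 2 or 4 or 24 month replicate 3 (edgeR adjusted p of 0.0529 to 0.0963). It was also lost with only the 2 ages compared (0.0556) and without a count filter (0.101). Over all alternatives the log2 fold change ran from -4.98 to -2.15 and the adjusted p from 0.00106 to 0.101.

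The sequence just before the start of a gene is where general and pathway factors bind, and it is shown for the members that passed the test and have an entry in the RefSeq promoter table (GRCm38.p6), Ihh and Gli3. Gli1, the other member that passed, had no entry. Each run is the 250 bases before the annotated start, 5′ to 3′ on the gene's strand, at chr1:74951673-74951922 (minus strand) for Ihh and chr13:15463473-15463722 (plus strand) for Gli3, where RefSeq places the start inside the interval of the count table. Capitals mark the GC box GGGCGG on either strand, a motif bound by general factors of the SP family that was chosen after the sequences were seen.
Ihh: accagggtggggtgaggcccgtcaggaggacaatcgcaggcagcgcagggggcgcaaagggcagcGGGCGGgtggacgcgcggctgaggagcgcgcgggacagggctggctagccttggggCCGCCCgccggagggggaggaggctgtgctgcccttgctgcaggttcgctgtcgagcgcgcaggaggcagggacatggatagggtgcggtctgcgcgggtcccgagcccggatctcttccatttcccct
Gli3: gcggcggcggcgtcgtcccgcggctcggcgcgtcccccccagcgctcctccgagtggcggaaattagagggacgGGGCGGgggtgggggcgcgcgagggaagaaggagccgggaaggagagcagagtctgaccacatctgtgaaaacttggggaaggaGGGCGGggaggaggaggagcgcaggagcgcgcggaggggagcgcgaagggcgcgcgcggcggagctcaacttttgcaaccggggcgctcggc
Both runs hold 2 GC boxes, and their GC content was 72% for Ihh and 72.8% for Gli3, against a median of 52.4% over 32817 windows. The 7 member windows held the GC box in 6 cases, all but Smo, against 32.7% of all windows. These shares are not matched for GC content: the box is all G and C, and the member windows held 59.6% (Dhh) to 78.4% (Ptch1). The GLI consensus GACCACCCA, searched on both strands of the full 300-base windows, was in none of the 7, nor with at most 1 mismatch. Of all windows 0.253% held it exactly and 6.75% with at most 1 mismatch.

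Dhh, encoding Desert hedgehog, is the other ligand gene that was detected (ENSMUSG00000023000, chr15:98891152-98898540, minus strand). Its samples held 11.2, 14.3, 7.96 and 13.8 CPM at 2 months, 7.09, 12.6 and 7.75 CPM at 18 months and 9.14, 9.76 and 6.43 CPM at 24 months. The 3 ages overlapped. The log2 fold change was -0.36 (SE 0.278; 95% interval -0.99 to 0.26; edgeR adjusted p = 0.414) at 18 months and -0.48 (SE 0.278; interval -1.11 to 0.14; edgeR adjusted p = 0.197) at 24 months against 2 months. A fall as large as the fitted value of Ihh lies outside both intervals. The 95% intervals of Ihh and Dhh at 24 months overlapped, however, and the difference between the ligands was not tested. Dhh shares 546 exon bases with Rhebl1 on the same strand and 1107 with an antisense gene; the counting of shared bases is not given in the sources used here, so its values are uncertain to that extent. Schwann cells also make Dhh: their 6 marker genes summed to 118 to 161 CPM at 2 months, 108 to 173 CPM at 18 months and 98.8 to 119 CPM at 24 months, with Sox10, a defining marker, at or near 0. The third ligand gene, Shh, failed the filter, with 0 to 0.262 CPM per sample.

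Levels per kilobase of exon allow genes to be compared only roughly, since the length counts all annotated exons of a gene. On this scale Ihh exceeded Dhh in all 4 samples at 2 months. The ratio of the 2 levels was 4.63, 6.83, 3.65 and 8.86 at 2 months, 3.73, 1.29 and 2.62 at 18 months and 2.71, 0.130 and 1.43 at 24 months. Ihh thus made up 84.5% ± 5.07 (SD, n = 4), 69.2% ± 11.6 (n = 3) and 47.8% ± 32.2 (n = 3) of the sum of both ligand levels. Only in 24 month replicate 2 was Dhh the higher of the 2, and the ranges of 2 and 18 months overlapped.

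The other granulosa cell genes moved with Ihh in part. Their 14 markers summed to 3977 to 5351 CPM at 2 months, 2648 to 3949 CPM at 18 months and 1949 to 4986 CPM at 24 months. Of the 14, 5 fell (Esr2, Serpine2, Nr5a2, Fshr and Amh) and 1 rose (Wt1) at 24 against 2 months. At 18 against 2 months 3 fell and 1 rose. The share called was 42.9% at 24 and 28.6% at 18 months, against 35.0% and 11.6% of all genes. In the 10 fits that left out 1 sample, the 5 falls at 24 months held and Wt1 lost its call in 1. At 18 months Esr2 lost its call in 2 fits, Fshr in 5, Amh in 6 and Wt1 in 7. The 8 oocyte markers fell at both older ages, from a sum of 157 to 380 CPM to 21.5 to 45.5 and 3.95 to 30.7 CPM. With 1 sample left out, all the oocyte marker calls held at 24 months. At 18 months only that of Figla held throughout, and Bmp15 lost its call in 6 fits. In 24 month replicate 2, the sample with the least Ihh, 10 of the 14 markers were also at their lowest of all samples, among them the inhibin and activin subunit gene Inhbb (19.2 CPM), the activin-binding Fst (19.3 CPM) and the aromatase gene Cyp19a1 (3.30 CPM). Foxl2, Kitl, Inha and Wt1 were not, and these genes were chosen after their values were seen. Without that sample, Ihh at 24 against 2 months had a log2 fold change of -2.15 and kept its call.

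Set against the mean log2 CPM of the granulosa markers in the same sample, Ihh lay at -2.40, -1.51, -2.72 and -1.20 at 2 months. The differences were -2.78, -3.28 and -3.00 at 18 months and -3.04, -5.46 and -4.42 at 24 months, all below the young samples, by a narrow margin at 18 months. On the same scale the 2 month samples of Dhh lay between -4.07 and -3.75, those of 18 months between -4.14 and -3.12 and those of 24 months between -4.40 and -2.09, which overlapped. The part of fewer granulosa cells or of fewer follicles at one stage in the change of Ihh was not tested.

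**Figure D2:**
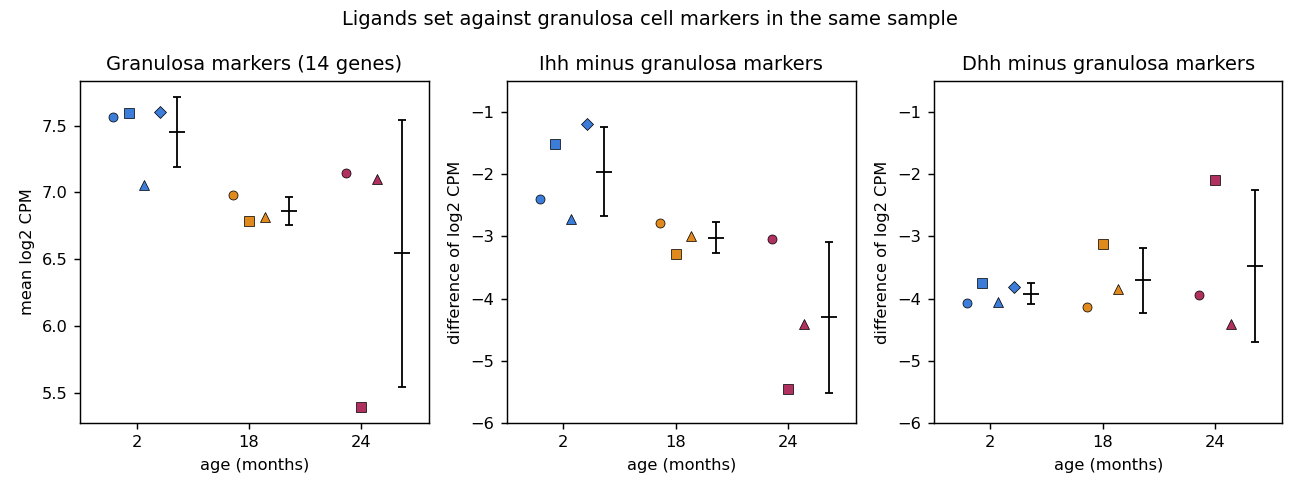
Mean log2 CPM of 14 granulosa cell markers (left), and log2 CPM of Ihh (middle) and Dhh (right) minus that mean in the same sample, by age in months, with mean ± SD and symbols for the replicate number as in the plot of levels by sample. The Ihh difference lies between -2.72 and -1.20 in the 4 samples at 2 months and at -2.78 or lower in all 6 older samples, while that of Dhh overlaps between ages.

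Ptch1 is the receptor, and also a target that feeds back on the signal (ENSMUSG00000021466, chr13:63508328-63573598, minus strand). It held 133, 149, 139 and 140 CPM at 2 months, 91.5, 151 and 122 CPM at 18 months and 122, 117 and 129 CPM at 24 months. All 24 month samples lay below all young ones, but by a small amount: the log2 fold change was -0.19 (SE 0.147; 95% interval -0.52 to 0.14; edgeR adjusted p = 0.328). At 18 against 2 months it was -0.21 (SE 0.148; edgeR adjusted p = 0.377), with groups that overlapped.

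Smo encodes Smoothened, which carries the signal across the cell membrane (ENSMUSG00000001761, chr6:29735503-29761365, plus strand). Its levels were 114, 128, 116 and 136 CPM at 2 months, 120, 161 and 149 CPM at 18 months and 133, 156 and 151 CPM at 24 months, and the groups overlapped. The log2 fold change was 0.22 (SE 0.122; 95% interval -0.06 to 0.49; edgeR adjusted p = 0.264) at 18 months and 0.25 (SE 0.122; interval -0.03 to 0.52; edgeR adjusted p = 0.139) at 24 months against 2 months. Neither passed the test. Over the 19 alternatives the 24 month value ran from 0.19 to 0.43 and was never called.

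Gli1 encodes the GLI factor that acts only as an activator (ENSMUSG00000025407, chr10:127329882-127341974, minus strand). At 2 months the samples held 23.0, 29.0, 17.1 and 19.2 CPM. At 18 months they held 21.3, 33.3 and 27.6 CPM, and at 24 months 32.3, 45.6 and 31.6 CPM. All 24 month samples lay above all 2 month samples, whereas those of 18 months overlapped with both. The mean was 22.1 ± 5.19 CPM (SD, n = 4), 27.4 ± 6.005 (n = 3) and 36.5 ± 7.90 (n = 3).

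Gli1 rose by 0.73 on the log2 scale at 24 against 2 months (SE 0.220; 95% interval 0.23 to 1.22; edgeR adjusted p = 0.0302). At 18 against 2 months its log2 fold change was 0.31 (SE 0.222; edgeR adjusted p = 0.383). The 24 month call was lost without 2 month replicate 1, 3 or 4 or 24 month replicate 2 (edgeR adjusted p of 0.0674 to 0.121), with a log2 fold change of 0.53 to 0.90 over the 10 fits that each left out 1 sample. Its adjusted p ran from 0.00526 to 0.121 over all alternatives.

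Gli3 encodes a GLI factor that is cut into a repressor in the absence of ligand (ENSMUSG00000021318, chr13:15463235-15730026, plus strand). It held 7.48, 11.7, 8.57 and 9.22 CPM at 2 months, 10.2, 19.99 and 14.9 CPM at 18 months and 9.82, 25.2 and 18.3 CPM at 24 months. Replicate 1 of each older age lay within the young range, and the other older samples lay above it. Gli3 rose by 0.95 at 24 against 2 months (SE 0.322; 95% interval 0.23 to 1.67; edgeR adjusted p = 0.0455), while 0.70 at 18 against 2 months did not pass (SE 0.323; edgeR adjusted p = 0.177). The 24 month call was lost in 7 of 10 fits that left out 1 sample, namely without any 2 month sample, 18 month replicates 3 and 4, or 24 month replicate 2 or 3 (edgeR adjusted p of 0.0514 to 0.193). Without a count filter the adjusted p was 0.0557, and over all alternatives it ran from 0.00763 to 0.193.

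Gli2, the main activator of the first response to the ligand (ENSMUSG00000048402, chr1:118834132-119053619, minus strand), held 17.8, 24.1, 18.3 and 20.97 CPM at 2 months. At 18 months it held 14.4, 49.0 and 29.3 CPM, and at 24 months 19.4, 41.1 and 28.3 CPM. Replicate 1 was the lowest and replicate 2 the highest at both older ages, the same order as for Gli3. The log2 fold change was 0.61 (SE 0.372; 95% interval -0.23 to 1.44; edgeR adjusted p = 0.305) at 18 months and 0.55 (SE 0.371; interval -0.29 to 1.38; edgeR adjusted p = 0.271) at 24 months against 2 months. These wide intervals include both no change and a change as large as that of Gli3.

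Of Gli1 and Ptch1, both read as targets of the signal, only Gli1 was called, and only at 24 against 2 months. The difference between these genes was not tested. Per kilobase, the ratio of Gli1 to Ptch1 was 0.490, 0.551, 0.351 and 0.389 at 2 months, 0.660, 0.624 and 0.643 at 18 months and 0.753, 1.10 and 0.695 at 24 months. Every older sample lay above every young one, and Gli1 exceeded Ptch1 only in 24 month replicate 2. The exons of Gli1 share 62 bases with Arhgap9 and 265 with an antisense gene, both on the opposite strand, and those of Gli3 share 188 with the opposite-strand gene Gm6556. The strand setting of the counting is not given in the sources used here, so reads from these stretches cannot be assigned with certainty.

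Hhip encodes a membrane protein that binds and traps Hedgehog ligands (ENSMUSG00000064325, chr8:79965851-80058006, minus strand). It held 17.4, 20.8, 11.9 and 16.7 CPM at 2 months, 9.53, 7.79 and 10.9 CPM at 18 months and 15.0, 7.14 and 17.0 CPM at 24 months. The 18 month samples all lay below the young ones, and those of 24 months overlapped with both other ages. At 18 against 2 months the log2 fold change was -0.83 (SE 0.3001; 95% interval -1.503 to -0.16; edgeR adjusted p = 0.0979), which did not pass. It passed with DESeq2 (adjusted p = 0.0429), with only the 2 ages compared (edgeR adjusted p = 0.0442) and without 24 month replicate 2 (edgeR adjusted p = 0.0415), within a range of 0.0415 to 0.255 over all alternatives. At 24 against 2 months the log2 fold change was -0.36 (SE 0.294; edgeR adjusted p = 0.366), and limma-voom alone called it, at -0.99 (adjusted p = 0.0108, against up to 0.866 in the other alternatives).

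Between 18 and 24 months the fitted values of the 8 members ran from -0.85 (Ihh) to 0.48 (Hhip; SE 0.316; edgeR adjusted p = 0.603). Gli1 stood at 0.42 (SE 0.237; edgeR adjusted p = 0.559), and Ptch1 (0.02), Smo (0.03) and Gli2 (-0.06) lay near 0. The 95% interval of Ihh ran from -2.68 to 0.99, so a further fall or a partial return are both inside it. For Smo it ran from -0.26 to 0.32 and for Ptch1 from -0.34 to 0.37.

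**Figure D3:**
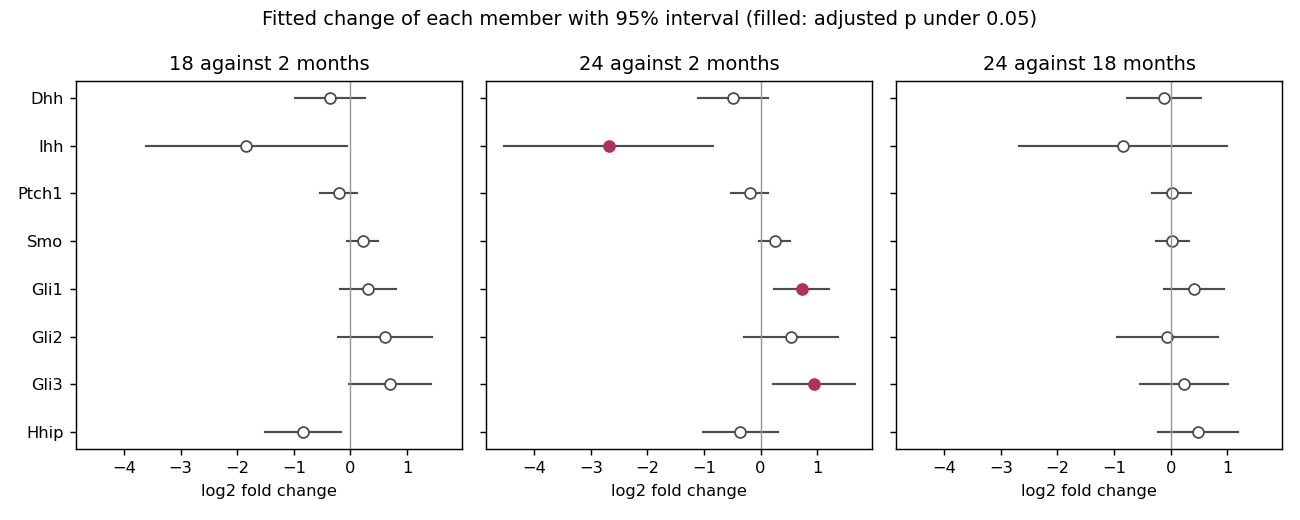
Fitted log2 fold change of each member (points) with its 95% interval (lines) for 18 against 2, 24 against 2 and 24 against 18 months; filled points passed the test at an adjusted p under 0.05. Filled points are Ihh at -2.69, Gli1 at 0.73 and Gli3 at 0.95, all at 24 against 2 months.

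The order of the members per kilobase of exon differed between ages mainly through Ihh. Smo had the highest mean at all 3 ages, with 21.95, 25.5 and 26.0 CPM per kb. At 2 months Ihh came next at 17.1 ± 9.61 CPM per kb (SD, n = 4), followed by Ptch1 (9.90), Gli1 (4.42), Gli2 (2.95), Dhh (2.68), Hhip (1.84) and Gli3 (0.963). Of these neighbours, Ptch1 did not overlap with Gli1, nor Hhip with Gli3, and all other neighbours overlapped. At 18 months Ihh was the fourth at 4.77 CPM per kb, below Ptch1 (8.57) and Gli1 (5.48) and near Gli2 (4.50), and only Smo and Ptch1 were apart. At 24 months it was the fifth at 2.67 CPM per kb, below Ptch1 (8.66), Gli1 (7.31) and Gli2 (4.31) and above Dhh (1.92), Gli3 (1.85) and Hhip (1.44). There only Smo and Ptch1, and Gli1 and Gli2, did not overlap.

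Some stroma markers rose with age, and the members of the receiving side can be set against them. The 8 stroma markers summed to 2514 to 3313 CPM at 2 months, 3308 to 5433 CPM at 18 months and 3627 to 6879 CPM at 24 months. At 24 against 2 months 4 rose (Dcn, Pdgfra, Nr2f2 and Lum) and 0 fell, which is 50% called, against 35.0% of all genes. Pdgfra lost its call in 6 and Nr2f2 in 4 of the 10 fits that left out 1 sample, and Dcn and Lum kept theirs. Gli3 minus the mean log2 CPM of the 8 stroma markers lay between -4.95 and -4.56 in young samples, between -5.01 and -4.69 in those of 18 months and between -5.08 and -4.23 in those of 24 months. Gli1 lay between -3.84 and -3.26 in young samples, between -3.96 and -3.85 in those of 18 months and between -3.72 and -3.37 in those of 24 months. On this scale both GLI genes that rose overlapped with their young values at 24 months, while Gli1 at 18 months lay just below all young samples.

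Ptch1, Smo and Hhip on the same scale lay lower in every older sample than in every young one. Ptch1 lay between -0.98 and -0.72 in young samples, between -1.86 and -1.71 in those of 18 months and between -2.36 and -1.41 in those of 24 months. Smo lay between -1.12 and -0.97, between -1.68 and -1.41 and between -1.95 and -1.19 at these ages. For Hhip the bounds were -4.25 and -3.74, -6.04 and -5.11, and -6.38 and -4.33. Against the 10 theca markers, Ptch1 overlapped between all ages, with values between -1.69 and -1.38 in young samples, between -1.99 and -0.66 in those of 18 months and between -1.94 and -0.40 in those of 24 months. These theca markers summed to 25285 to 55144, 18749 to 29073 and 6582 to 24056 CPM at the 3 ages. Against 2 months only Enpep fell at 18 months and only Star, by 3.59, at 24 months, and 0 rose. That is 10% called at each age, against 11.6% and 35.0% of all genes. The median log2 fold change of the 10 was -0.37 and -0.01. Differences on this scale follow the markers as well as the members. On the theca scale the means of Smo were -1.70, -1.11 and -0.96 at 2, 18 and 24 months, higher with age. Those of Gli1 were -4.21, -3.51 and -2.98, those of Gli3 -5.45, -4.40 and -4.09, and those of Hhip -4.61, -5.03 and -4.53. For each of these genes the older ranges overlapped with the young one. The direction for Smo thus differed between the stroma and theca lists. No test was made of these differences.

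Some markers of other cell types also rose with age. Of the 6 blood vessel endothelium markers 0 were called in any comparison, and they summed to 437 to 922, 589 to 652 and 437 to 624 CPM at the 3 ages. The 7 surface epithelium markers summed to 102 to 136 CPM at 2 months, 220 to 530 CPM at 18 months and 195 to 679 CPM at 24 months, and 6 of them rose at 24 against 2 months. The 6 oviduct markers stood at 6.45 to 12.4, 11.2 to 77.0 and 10.2 to 759 CPM, the highest in 24 month replicate 3. The 5 Sertoli cell markers summed to 12.5 to 17.7, 24.8 to 83.8 and 16.0 to 104 CPM. Of the 4 tested, Sox9 rose at both older ages and Cldn11 at 24 months. That is 25% and 50% called, against 11.6% and 35.0% of all genes. With 1 sample left out, Sox9 lost its 18 month call in 6 of 10 fits and Cldn11 its call in 7. Smooth muscle markers, 2 of 6 of which rose at 24 months, summed to 547 to 885, 671 to 1611 and 580 to 1533 CPM. Leukocyte markers, 5 of 6 of which rose at both older ages, summed to 87.3 to 117, 177 to 265 and 241 to 285 CPM. At 24 against 2 months 85.7% of surface epithelium, 33.3% of smooth muscle and 83.3% of leukocyte markers were called, against 35.0% of all genes. For leukocyte markers it was 83.3% at 18 months, against 11.6%. Upk3b and Tagln lost their 24 month call in 6 of the 10 fits that left out 1 sample, and Des in 2. At 18 months Cd68 lost its call in 5 fits, Ptprc in 2 and Adgre1 in 1. The part of such cells in the values of the members was not tested. Without 24 month replicate 3, the sample with the highest sum of oviduct markers, the log2 fold change was -2.54 for Ihh (edgeR adjusted p = 0.0963), 0.95 for Gli3 (0.104) and 0.83 for Gli1 (0.0492), close to the values with all samples; the calls of Ihh and Gli3 were also lost without some of the 2 month samples.

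The wider pathway was read from 4 lists with 43 genes, of which 40 were tested and Shh, Gpc5 and Foxf2 failed the filter. Of these, 10 rose and 6 fell at 24 against 2 months, and 3 rose and 2 fell at 18 against 2 months. The share called was 40% and 12.5%, near the 35.0% and 11.6% of all genes. The median log2 fold change was 0.32 at 24 months and 0.13 at 18 months, against 0.03 and 0.01 over all genes. At 24 against 18 months 0 of the 40 passed by edgeR, DESeq2 or limma-voom.

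Co-receptors, which help Patched bind the ligand, all lay on the same side of 0. The 4 genes (Boc, Cdon, Gas1 and Lrp2) had positive log2 fold changes at both older ages, with a median of 0.87 at 18 and 1.16 at 24 months. Boc and Gas1 rose at both ages, which is 50% called, against 11.6% of all genes at 18 months and 35.0% at 24 months. Lrp2, not called at either, held 3.07, 4.69, 4.71 and 5.08 CPM at 2 months and 4.82, 13.1 and 4.37 CPM at 18 months. At 24 months it held 1.87, 5.35 and 23.9 CPM, on both sides of the young range. The highest value was that of replicate 3, the sample with the highest sum of oviduct markers. Gas1, a cell surface anchor for the ligand, held 32.1, 44.2, 25.5 and 40.8 CPM at 2 months, 72.5, 162 and 108 CPM at 18 months and 73.3, 119 and 99.3 CPM at 24 months. Every older sample lay above every young one. It rose by 1.68 at 18 months (SE 0.287; edgeR adjusted p = 0.0137) and by 1.45 at 24 months (SE 0.286; edgeR adjusted p = 0.00663) against 2 months.

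Boc, a membrane co-receptor of the immunoglobulin family, held 35.9, 40.5, 44.7 and 42.9 CPM at 2 months, 43.2, 76.8 and 89.4 CPM at 18 months and 83.5, 96.8 and 80.3 CPM at 24 months. The 24 month samples lay far above the young ones, and 18 month replicate 1 lay among them. Boc rose by 1.08 at 24 months (SE 0.209; edgeR adjusted p = 0.00607) and by 0.77 at 18 months (SE 0.209; edgeR adjusted p = 0.0447). Its relative Cdon stood at 39.3 ± 11.3, 77.0 ± 23.9 and 64.1 ± 21.7 CPM (SD, n = 4, 3 and 3) and did not pass, with 0.97 (edgeR adjusted p = 0.0689) and 0.71 (edgeR adjusted p = 0.100).

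Among the 7 tested genes of ligand production and release, only Scube1 passed. Scube1, a secreted carrier that helps to release the lipid-bound ligand, held 36.4, 50.7, 28.3 and 32.1 CPM at 2 months, 11.9, 15.6 and 11.6 CPM at 18 months and 21.5, 18.2 and 15.7 CPM at 24 months. All older samples lay below the young ones, as for Ihh. Scube1 fell by 1.498 at 18 months (SE 0.219; edgeR adjusted p = 0.0107) and by 1.000 at 24 months (SE 0.214; edgeR adjusted p = 0.00838), and kept both calls in all 10 fits that left out 1 sample. The other 6 were not called at either age, and the list's median was -0.02 at 18 and 0.14 at 24 months.

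In the list of cilium and signal transduction genes 3 of 19 rose and 3 fell at 24 against 2 months (31.6% called, against 35.0% of all genes), with a median of 0.24. Those that rose were Evc (0.69; edgeR adjusted p = 0.0100), which sits at the base of the cilium, its partner Iqce (0.63; edgeR adjusted p = 0.00983) and the kinase gene Ulk3 (0.57; edgeR adjusted p = 0.0109). Those that fell were Sufu, which holds GLI proteins back, Prkaca, the kinase subunit that marks them for cutting, and Evc2. Mean levels at 2, 18 and 24 months were 65.1, 55.7 and 47.0 CPM for Sufu and 239, 204 and 130 CPM for Prkaca. At 18 months only Evc2 passed, with -0.51 (edgeR adjusted p = 0.0429).

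Of the 10 tested downstream genes, 5 rose (Snai2, Nr2f2, Bcl2, Nr2f1 and Ccnd1) and 2 fell (Mycn and Foxl1) at 24 against 2 months, with a median of 0.64. That is 70% called, against 35.0% of all genes (19.2% higher and 15.8% lower). Nr2f1, an orphan nuclear receptor gene, rose by 1.97 (SE 0.357; edgeR adjusted p = 0.00481), and by 1.53 at 18 months (SE 0.356; edgeR adjusted p = 0.0268). Mycn, a growth-promoting transcription factor gene, fell by 1.29 (SE 0.271; edgeR adjusted p = 0.00797). Foxl1 fell by 2.49 (SE 0.592; edgeR adjusted p = 0.0124) from a low level of 0.905 ± 0.202 CPM (SD, n = 4). Nr2f2 also stands in the list of stroma markers. These genes answer to many other signals as well.

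Of the 16 pathway calls at 24 against 2 months, 9 held in all 10 fits that left out 1 sample: Scube1, Boc, Gas1, Evc, Iqce, Ulk3, Nr2f1, Mycn and Foxl1. The other 7 lost their call in 2 to 9 of the fits. Prkaca lost it without 24 month replicate 2 or 3, and Nr2f2, Bcl2 and Ccnd1 in 4 fits each, always including 24 month replicate 3 and 2 month replicate 1. Snai2 lost it in 7, Sufu in 8 and Evc2 in 9. Of the 5 calls at 18 against 2 months Scube1 alone held throughout; Gas1 lost its call only without 2 month replicate 1 (edgeR adjusted p = 0.0505), Nr2f1 in 5 fits and Boc and Evc2 in 9.

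**Figure D4:**
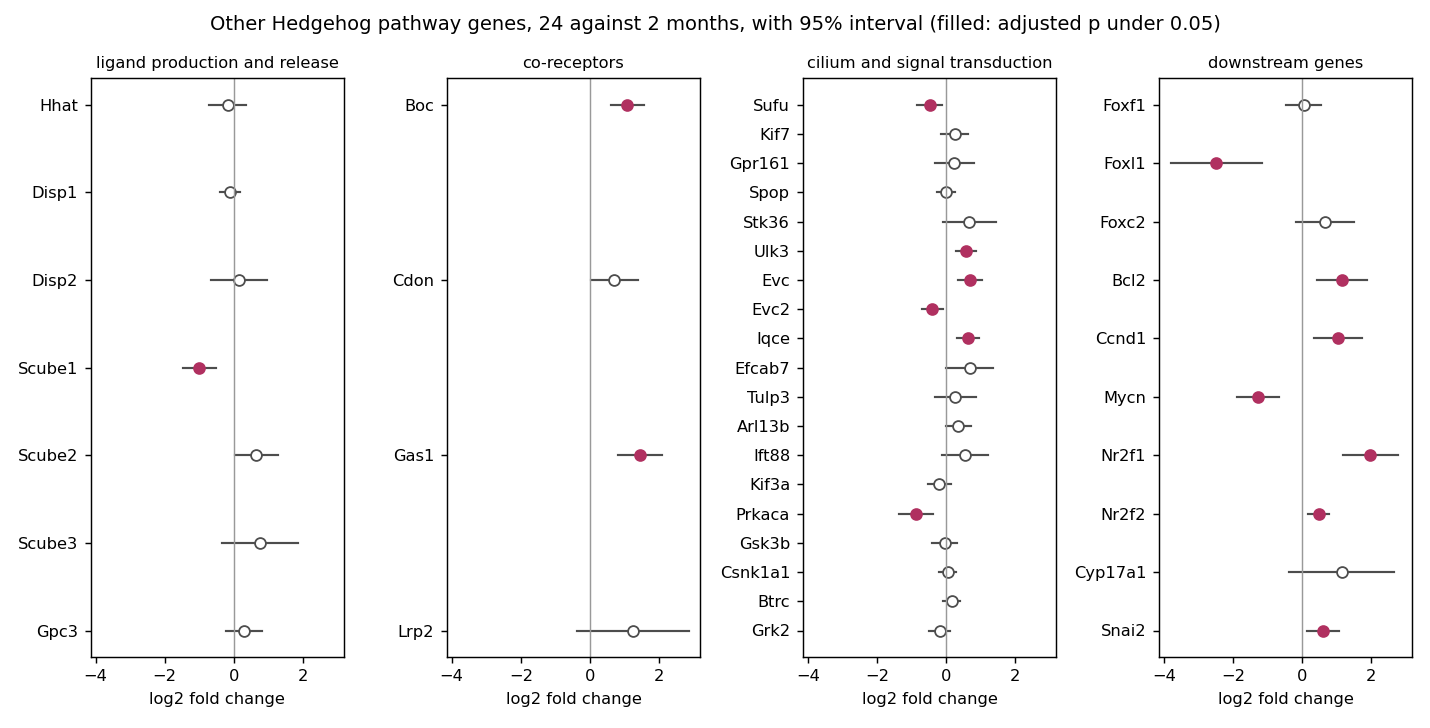
Fitted log2 fold change at 24 against 2 months (points) with its 95% interval (lines) for the 40 other pathway genes tested, in 4 lists; filled points passed the test at an adjusted p under 0.05. All 4 co-receptor genes lie above 0, and Scube1, which fell by 1.000, is the only filled point among the genes of ligand production and release.

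Genes whose pattern over the 10 samples was most like that of a called member were found by the root mean square difference of log2 CPM, each gene centred on its own mean, among 12385 genes with a mean of at least 5 CPM. For Ihh these were Car14 (difference 0.416), a membrane-bound carbonic anhydrase gene, and Slc38a5 (0.547), an amino acid transporter gene. Car14 held 77.8, 96.1, 44.5 and 95.6 CPM at 2 months, 24.2, 14.7 and 17.9 CPM at 18 months and 20.04, 2.504 and 10.6 CPM at 24 months. As for Ihh, 2 month replicate 3 was the lowest of its age and 24 month replicate 2 the lowest of all. Car14 fell by 2.83 at 24 against 2 months (edgeR adjusted p = 0.00812) and Slc38a5 fell by 3.42 (edgeR adjusted p = 0.0111), but both were chosen for following Ihh in these samples, so the values describe them and are no independent support.

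For Gli3 the closest genes were 6430573F11Rik (0.132) and Plekhh2 (0.157), and for Gli1 Fam184a (0.137) and Cped1 (0.162). Plekhh2 held 9.58 to 13.2 CPM at 2 months, 15.3 to 30.8 CPM at 18 months and 12.4 to 33.6 CPM at 24 months, lowest in replicate 1 and highest in replicate 2 of each older age, as for Gli3. Fam184a held 5.08 to 7.58, 5.46 to 10.8 and 8.96 to 11.4 CPM at the 3 ages. A small difference is easier to reach for genes that vary little, so these values cannot be compared between members.

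**Figure D5:**
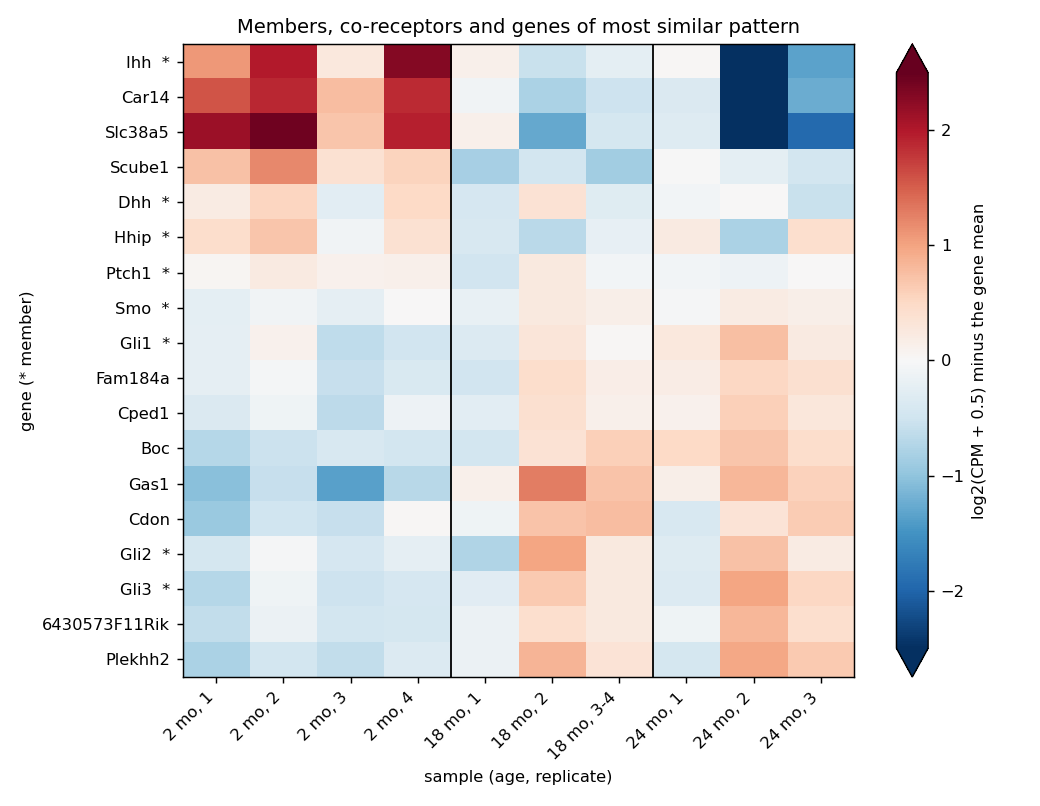
Level of the 8 members (asterisks), 4 further pathway genes and the 6 genes of most similar pattern in each of the 10 samples, as log2(CPM + 0.5) minus the gene's mean, from blue (low) to red (high); lines part the ages. Ihh, Car14 and Slc38a5 are high at 2 months and lowest in 24 month replicate 2, and the GLI and co-receptor genes are high in replicate 2 of both older ages.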

How the data were processed

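Stranded Illumina mRNA libraries were made from total RNA of whole mouse ovaries, per the labels. The values are raw counts, 1 row a gene, as deposited; the authors' tools were FastQC, cutadapt, STAR and HTSeq with mm10, per the submitters' processing notes. Their versions, the annotation and whether counting used strand are not given in the sources. Exon lengths and overlaps were read from GENCODE M21, where 52787 of 54232 identifiers had identical coordinates.

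Counts were filtered with edgeR's filterByExpr, scaled by TMM and fitted with glmQLFit (robust; edgeR 4.0.16, R 4.3.3) in 1 model of all ages. The two-sided quasi-likelihood F-test used 7 residual degrees of freedom and Benjamini-Hochberg adjustment over all 20331 genes, at 0.05. The common biological coefficient of variation was 0.32, and the script was tested on simulated data. The 18 month replicates 3 and 4 were summed after a chi-square test over genes with at least 10 counts in the pair. Log2 CPM against marker lists used a prior count of 2. Alternatives were DESeq2 1.42.0 and its size factors, library totals alone, limma-voom (limma 3.58.1) with sample quality weights, other count filters (none, or CPM of at least 1 in 3 samples), a replicate block, only the 2 ages compared, all 11 libraries kept apart, a prior count of 0.5, motif mismatches and leaving out each sample.

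The members, gene lists and tests were chosen with earlier results of these data known. The rule for named genes took all 8 members, from each list the 3 genes lowest in adjusted p in each comparison, and the 2 genes most like each called member; further called genes are listed where a count is given. Some results for single genes are left out here, and counts over the pathway lists were made without them. To see whether replicate numbers pair the samples, each sample's deviations from its age mean were correlated. The same-numbered pairs of the 2 older ages gave 0.398, 0.283 and 0.148, and the differently numbered pairs -0.339 to 0.144. Since each same-numbered value exceeded 0.1, the block value stands beside that comparison. The labels do not say what a number shares, and the lowest of these values is close to the highest of the other pairs.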

Additional observations from a re-analysis of the deposited data

How the results depend on the processing

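The direction of each member's log2 fold change was the same under all 19 alternatives at 18 and at 24 against 2 months, and no alternative gave a rise for Ihh or a fall for Gli1 or Gli3. Calls depended on the samples: leaving out 1 sample gave 0 to 3 called members at 24 against 2 months and 0 to 1 at 18 against 2 months. Without a count filter 1 member was called at 24 against 2 months, and with a replicate block 2, where Ihh lost its call (edgeR adjusted p = 0.0850). At 18 against 2 months DESeq2 called 1 member and the fit with only the 2 ages 2 members. The pathway genes called numbered 8 with all libraries kept apart and 9 with DESeq2 at 18 against 2 months, and 1 to 8 with 1 sample left out, against 5. At 24 against 2 months they were 9 to 18 with 1 sample left out and 13 with the replicate block, against 16. Genes called at 18 against 2 months numbered 4052 with DESeq2, 4000 with all libraries apart, 1034 with the replicate block and 375 (without 18 month replicates 3 and 4) to 2748 (without 24 month replicate 3) with 1 sample left out, against 2349. At 24 against 2 months leaving out 1 sample gave 4283 (without 24 month replicate 3) to 7467 genes, against 7120. At 24 against 18 months, against 1 gene, DESeq2 called 194, and 0 were called with library totals, with only the 2 ages or with the replicate block, and 0 to 2 with 1 sample left out; the cause was not tested.

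Between 24 and 18 months, where no member was called, 6 members changed sign in some setting. With 1 sample left out the log2 fold change ran from -0.28 to 0.19 for Dhh, -0.16 to 0.20 for Ptch1, -0.0900 to 0.124 for Smo, -0.40 to 0.45 for Gli2 and -0.10 to 0.54 for Gli3. With limma-voom it was 0.0274 for Dhh, -0.00292 for Ptch1, 0.332 for Gli2 and -0.0704 for Hhip. Gli2 stood at 0.0355 with library totals and 0.0140 with the replicate block. Library totals moved the median log2 fold change of all genes from 0.03 to 0.22 at 24 against 2 months and from 0.03 to 0.12 at 24 against 18 months. Same-numbered samples of 2 and 18 months correlated at -0.0576 to 0.0741 and those of 2 and 24 months at -0.109 to -0.0278. Since none exceeded 0.1, these were taken to share only a number. Differently numbered samples of these ages reached 0.247 and 0.143. Ihh rested on 31 counts in 24 month replicate 2, which is a deep library, and on 79 or more in the other libraries.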
